A study of Mus musculus with 3 samples.

Results

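Oxidative phosphorylation is carried out in the inner mitochondrial membrane by 5 protein complexes. Complex I (NADH dehydrogenase) and complex II (succinate dehydrogenase) pass electrons to ubiquinone. Complex III hands them to cytochrome c and complex IV hands them to oxygen, and complex V (ATP synthase) makes ATP from the proton gradient that complexes I, III and IV build. Most subunits are encoded in the nucleus, a few by mitochondrial DNA, and complex II by the nucleus alone. In marrow, resting stem cells are known for relying little on oxidative phosphorylation, and erythroid precursors for a large mitochondrial demand that includes heme synthesis.

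The nuclear subunit genes were taken by symbol, as every gene named Nduf followed by a, b, c, s or v and a number, Sdha to Sdhd, every Uqcr gene, Cox4 to Cox8 genes without Cox6a2, and every Atp5 gene. This gave 82 of the 32285 genes in the count tables, 36 for complex I, 4 for complex II, 8 for complex III, 17 for complex IV and 17 for complex V. Symbols set the membership, so Cyc1 (cytochrome c1 of complex III) and Ndufab1 (the acyl carrier subunit of complex I) are not in it, and Ndufa4, which is found with complex IV, is counted here under complex I. Ndufb1-ps is not a member either, because of the suffix of its symbol. Cox7a2l is known as a supercomplex assembly factor.

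Lineage-negative marrow of mice was profiled with 10x 3' single-cell RNA sequencing, in 1 library for each of 3 genotypes. The Cre-negative control carries the Rit1-M90I allele without Cre (strain label Rit1M90I/+Mx1Cre-, called wild type in the title). The Lztr1 knockout is Lztr1fl/fl;Mx1Cre+, and the Rit1-M90I library is Rit1M90I/+;Mx1Cre+. All mice were 8 weeks old when they received 3 doses of pIpC, a double-stranded RNA that induces interferon, at 12 mg/kg, and marrow was taken 4 weeks later. Mx1-Cre is driven by an interferon-responsive promoter that is active in many cell types, and only the mutant libraries carry it. Effects of Cre and of the alleles cannot be told apart. The sources used here do not say how many mice went into a library. Live cells without surface CD3, CD11b, Gr1, B220 and Ter119 were sorted, so the T and B cells below are those that the sort left.

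After filtering, 7262 control, 2338 Lztr1 knockout and 9351 Rit1-M90I cells remained, with 62250764, 27617480 and 79554199 UMIs (distinct mRNA tags). The median cell held 6856.5, 9922.5 and 6584 UMIs, and 5 to 19 barcodes were shared by a pair of libraries. Lztr1 mRNA over all kept cells was 17.3 CPM, UMIs scaled to 1 common total per population, in the control, 6.34 in the library labelled Lztr1 knockout and 15.2 in Rit1-M90I. Rit1 mRNA was 8.64, 11.7 and 13.5 CPM. With 1 library per genotype there is no replicate and no test, and every interval is a 95% interval for counting error alone, which leaves out the spread between cells and between mice.

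Cells were assigned to 17 populations by panels of 8 marker genes. A cell was assigned where at least 4 markers of a panel had a UMI and that number led every other panel by at least 2. This gated 64.9% of cells in the control library, 63.9% in Lztr1 knockout cells and 61.7% in Rit1-M90I cells. Population names stand for the panel, and cells near the cut were common in some. Of control cells gated as monocytes 52.6% sat exactly at the cut, with a median of 6 monocyte markers and 4 of the next panel. The share at the cut was 18.9% for erythroid progenitors and 8.28% for basophil and mast cells.

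In the control, mRNA of the 82 genes was highest in erythroid and neutrophil progenitors and lowest in plasma cells. The summed level was 33354 CPM (33266 to 33443) in 869 erythroid progenitors and 31220 (31104 to 31336) in 743 neutrophil progenitors. It was 27843 CPM in 506 monocytes and 24792 in 72 megakaryocyte lineage cells. Lymphoid progenitors, B cells and NK cells followed at 22466, 22129 and 21482 CPM, with overlapping intervals between neighbours. Basophil and mast cells (19416 CPM), T cells (19272) and stem and multipotent cells (19240) came next and had intervals that overlapped among themselves, below those of NK cells and above those of plasma cells. Plasma cells held 9056 CPM (8878 to 9237). Erythroid progenitors thus had 1.73 times (1.71 to 1.76) the summed level of stem and multipotent cells and 1.72 times (1.70 to 1.73) that of basophil and mast cells.

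The mutant libraries gave nearly the same order. In the Lztr1 knockout the levels ran from 31742 CPM in erythroid progenitors through 31450 in neutrophil progenitors, with overlapping intervals, to 27239 in monocytes, 22498 in lymphoid progenitors and 19473 in basophil and mast cells. In Rit1-M90I neutrophil progenitors came first at 33150 CPM, then erythroid progenitors at 32802 and monocytes at 27905. Plasma cells were again lowest there, at 9535 CPM. With each cell weighted equally, Rit1-M90I erythroid progenitors stood at 31132 CPM, above neutrophil progenitors at 30894.

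**Figure D1:**
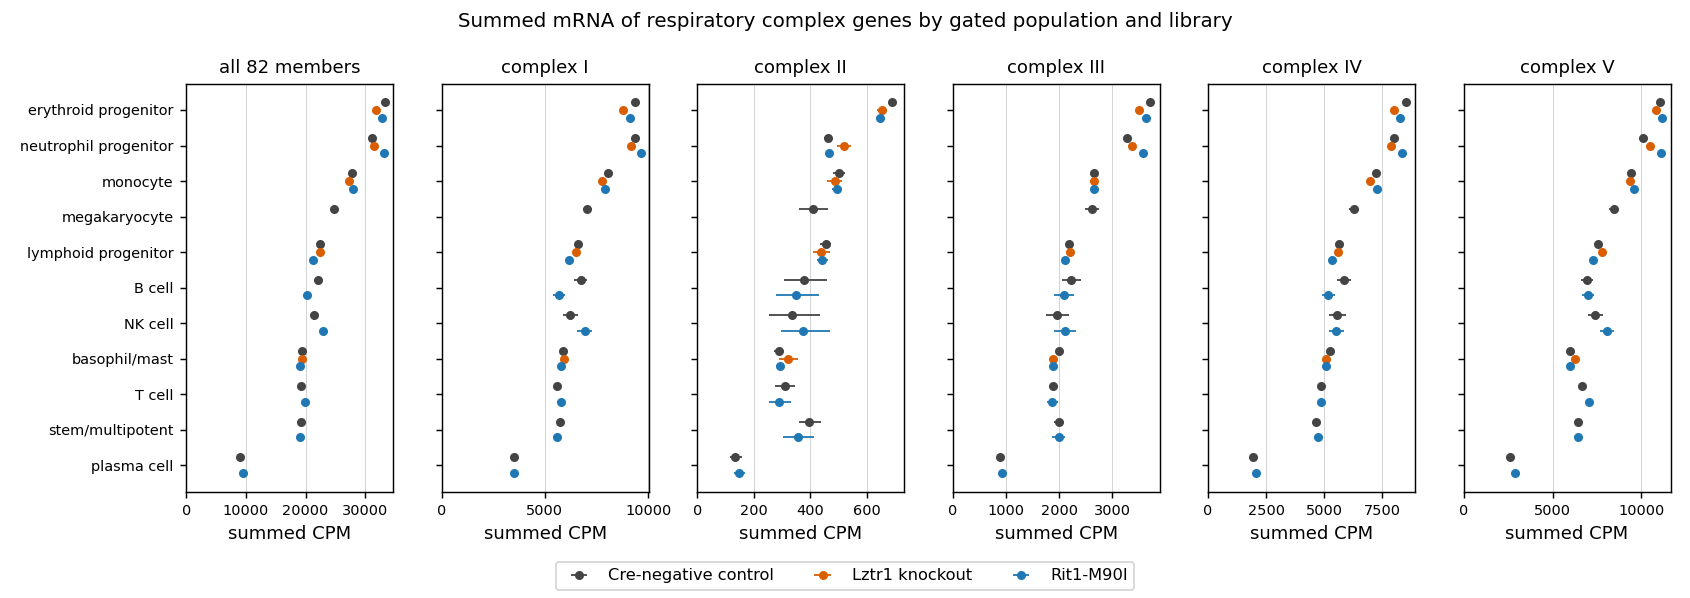
Summed CPM (x axis) of all 82 genes and of each complex in gated populations (y axis), with points for the 3 libraries and 95% counting intervals; populations with under 50 cells in a library are left out. Erythroid and neutrophil progenitors are at the top in every library, between 31220 and 33354 CPM, and plasma cells are at the bottom in both libraries that have enough of them.

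Depth and the makeup of the denominator differed between these populations. The median control cell held 18646 UMIs among erythroid progenitors, 11761 among neutrophil progenitors, 5203 among stem and multipotent cells, 2543 among basophil and mast cells and 10664 among plasma cells. Among control cells of 3000 to 8000 UMIs only, a window added after the data were seen, monocytes were highest (26416 CPM), neutrophil progenitors held 26052 and erythroid progenitors 25136. In that window the ratio of erythroid progenitors to basophil and mast cells was 1.26 in place of 1.72. When mitochondrially encoded, ribosomal protein and the 50 most abundant genes of each population were left out of the denominator, the ratio of erythroid progenitors to plasma cells was 1.2497 in place of 3.68. Plasma cells then stood in the fourth place of 11 and basophil and mast cells in the last. CPM is a share of all mRNA in a population, and plasma cells are known for very abundant antibody mRNAs. The part of depth in these differences was not tested.

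Complexes followed the same broad order with different spans. Erythroid progenitors held 2.69 times (2.60 to 2.78) the plasma cell level of complex I, 5.09 times (4.32 to 6.03) that of complex II, 4.20 times that of complex III, 4.39 times that of complex IV and 4.24 times that of complex V. Complex I made up 28.1% of the members' UMIs in erythroid progenitors and 38.5% in plasma cells. Complex II set erythroid progenitors apart from neutrophil progenitors most. It stood at 690 CPM (677 to 703) in the former and 463 in the latter, a ratio of neutrophil to erythroid progenitors of 0.671 (0.647 to 0.696), while the same ratio was 1.001 (0.993 to 1.01) for complex I. Over all kept control cells, complex V summed to 9147 CPM, complex I to 8036, complex IV to 7056, complex III to 2884 and complex II to 507. Both mutant libraries had the same order of complexes.

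Of the 82 genes, 77 reached 50 CPM in at least 1 control population. The other 5 are known from other tissues. Cox4i2, the lung isoform of subunit IV, had 140 UMIs in all kept control cells, and Cox7a1, the heart and muscle isoform, had 74. Cox8c had 1 UMI, and Cox7b2 and Cox8b had 0. A count of 0 allows up to 3 UMIs in that library by counting error.

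The 77 genes varied by a median of 4.17-fold between their highest and lowest control population. The smallest span was 1.81-fold, for Ndufv3, an accessory subunit of the NADH-binding arm. Highest levels fell in erythroid progenitors for 44 genes and in neutrophil progenitors for 16, and lowest levels in plasma cells for 70. Plasma cells thus set the lower end of most spans, and they are among the populations behind the r values below. Their place depended on the denominator. The summed ratio of erythroid progenitors to plasma cells was 3.68, and 1.2497 with mitochondrially encoded, ribosomal protein and the 50 most abundant genes left out of it. As a description over 11 populations that differ in depth and cell number, 61 genes had a Pearson r above 0.8 with the sum of the other members on the log2 scale, and the median was 0.91. The same summed level had an r of 0.88 with 18 proliferation genes, 0.81 with 13 mitochondrially encoded subunits and 0.20 with the median UMI count per cell, with Spearman rho of 0.82, 0.45 and 0.50.

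**Figure D2:**
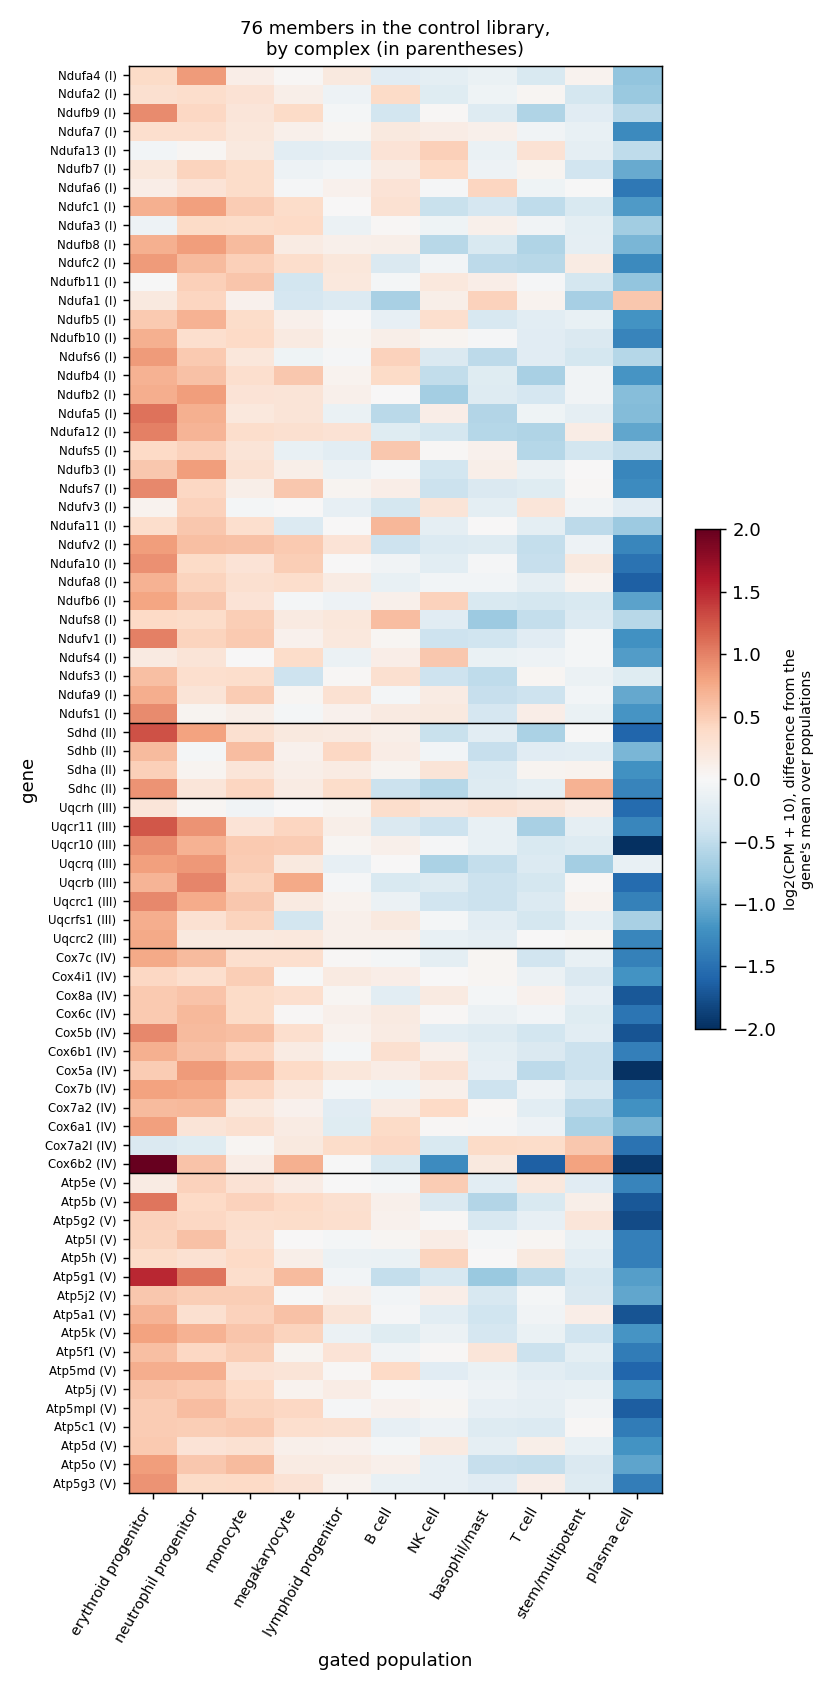
Control level of 76 of the 77 genes that reach 50 CPM (y axis, by complex) in 11 gated populations (x axis), coloured by the difference of log2(CPM + 10) from the gene's mean over populations. Most rows are red in erythroid and neutrophil progenitors and blue in plasma cells; Cox6b2, Ndufa1 and Cox7a2l stand out.

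Among complex I members, Ndufa4 and Ndufa2 had the highest counts over all kept control cells. Ndufb1-ps, which the symbol rule leaves out, had 716 CPM there, against 380 for Ndufa2. Ndufa4 was highest in neutrophil progenitors, at 1126 CPM, against 808 in erythroid progenitors, 656 in stem and multipotent cells and 356 in plasma cells. Ndufa2, an accessory subunit, ran from 195 CPM in plasma cells to 437 in B cells. A few complex I genes departed from the common order. Ndufa1, an accessory subunit of the membrane arm encoded on the X chromosome, had its highest level in plasma cells (337 CPM) and its lowest in stem and multipotent cells (141), and its r with the other members was -0.19. Ndufa13 was highest in NK cells (410 CPM) with an r of 0.45, as was that of Ndufv3. Ndufa1, Ndufa13 and Cox7a2l were singled out after their values were seen.

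Within complex II the widest span belonged to Sdhd, the membrane anchor that binds heme with Sdhc. Sdhd stood at 251 CPM in erythroid progenitors, 178 in neutrophil progenitors, 124 in monocytes, 96.5 in stem and multipotent cells, 82.7 in basophil and mast cells and 25.8 in plasma cells, a span of 9.73-fold. Sdhb, the iron-sulfur subunit, had 175 CPM in erythroid progenitors and 173 in monocytes but 106 in neutrophil progenitors. Neutrophil progenitors thus stood next to erythroid progenitors for Sdhd and below monocytes, lymphoid progenitors and B cells for Sdhb.

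In complex III, Uqcrh, the acidic hinge subunit, was nearly flat outside plasma cells, between 558 CPM in monocytes and 751 in B cells, with 196 in plasma cells. The small subunit Uqcr11 was far from flat, with 874 CPM in erythroid progenitors, 687 in neutrophil progenitors, 322 in stem and multipotent cells and 228 in T cells. Uqcr10, another small subunit, spanned 9.20-fold, from 64.6 CPM in plasma cells to 594 in erythroid progenitors.

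Complex IV counts were led by Cox7c (1023 CPM over all kept control cells) and Cox4i1 (946 CPM), the common form of subunit IV. Cox7c ran from 291 CPM in plasma cells through 583 in T cells to 1297 in erythroid progenitors. Cox5a, a subunit on the matrix side, was highest in neutrophil progenitors (678 CPM) and spanned 7.82-fold, and Cox5b was highest in erythroid progenitors (751 CPM) and spanned 6.90-fold. Cox7a2l went against the others: it was highest in stem and multipotent cells (453 CPM) and stood at 251 in erythroid progenitors, with an r of 0.48 with the other members.

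The widest span belonged to Cox6b2, a form of subunit VIb best known from testis. Control erythroid progenitors held 315 CPM (307 to 324) of it. The next were stem and multipotent cells at 79.4, megakaryocyte lineage cells at 74.1 and neutrophil progenitors at 66.6, and it was 48.9 in basophil and mast cells, 46.9 in monocytes and 41.2 in lymphoid progenitors. Few UMIs lay behind the lymphocyte values, which were 31.5 CPM (13.6 to 62.0) in B cells from 8 UMIs, 11.6 (1.40 to 41.8) in NK cells from 2 and 6.62 (2.66 to 13.6) in T cells from 7. The B cell interval held the lymphoid progenitor level. Plasma cells had 4 UMIs, 3.69 CPM (1.01 to 9.45). Erythroid progenitors had 7.65 times (6.59 to 8.93) the lymphoid progenitor level, and 5.07 times within the window of 3000 to 8000 UMIs. The mutant erythroid progenitors were alike, at 300.2 CPM in both libraries. Among the UMIs of Cox6b1 and Cox6b2 together, Cox6b2 took 31.8% (31.1 to 32.6, exact Clopper-Pearson) in control erythroid progenitors, 33.4% in Lztr1 knockout cells and 31.9% in Rit1-M90I cells. In control lymphoid progenitors it took 9.34% (8.07 to 10.7) and in T cells 1.94% (0.785 to 3.97). A 3' UMI counts an mRNA once whatever its length, but capture may differ between genes, so such shares are compared between populations only.

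The promoters of this pair are shown because the paralogs encode forms of the same subunit and their relative levels differ between populations. Each is 250 bases before to 50 bases after the RefSeq start, on GRCm38.p6 (mm10), minus strand, in lower case throughout since it held no match to the motifs given further on. Cox6b1 lies at chr7:30626065-30626364 and Cox6b2 at chr7:4753045-4753344.
Cox6b1: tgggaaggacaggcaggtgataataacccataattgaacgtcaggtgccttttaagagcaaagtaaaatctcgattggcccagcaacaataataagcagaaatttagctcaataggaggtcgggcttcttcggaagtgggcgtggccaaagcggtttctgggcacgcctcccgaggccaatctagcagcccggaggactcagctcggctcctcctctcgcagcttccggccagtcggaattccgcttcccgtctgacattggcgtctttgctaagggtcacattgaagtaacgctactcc
Cox6b2: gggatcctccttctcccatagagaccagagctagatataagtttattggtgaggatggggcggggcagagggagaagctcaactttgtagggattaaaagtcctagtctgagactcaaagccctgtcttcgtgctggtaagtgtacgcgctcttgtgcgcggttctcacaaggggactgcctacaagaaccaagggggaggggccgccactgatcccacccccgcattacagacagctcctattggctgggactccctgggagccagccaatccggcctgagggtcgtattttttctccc

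Complex V counts were led by Atp5e, the small epsilon subunit of the central stalk, and Atp5b, the catalytic beta subunit. Atp5e was highest in NK cells (1278 CPM) and neutrophil progenitors (1231), and stood at 1002 in erythroid progenitors. Atp5b was highest in erythroid progenitors (1008 CPM) and stood at 627 in neutrophil progenitors, 519 in stem and multipotent cells, 314 in basophil and mast cells and 140 in plasma cells. The ring subunit c is encoded by Atp5g1, Atp5g2 and Atp5g3, which give the same mature protein. Atp5g1 was 990 CPM in control erythroid progenitors, 731 in neutrophil progenitors, 273 in stem and multipotent cells and 201 in basophil and mast cells. Atp5g2 varied less outside plasma cells, from 443 CPM in basophil and mast cells to 769 in erythroid progenitors. Atp5g1 therefore took 44.6% (44.1 to 45.1) of the subunit c UMIs in erythroid progenitors, 40.8% (40.1 to 41.6) in neutrophil progenitors, 29.7% in monocytes, 25.5% in lymphoid progenitors and 24.0% (21.5 to 26.6) in stem and multipotent cells. The same share in erythroid progenitors was 43.4% in Lztr1 knockout cells and 43.2% in Rit1-M90I cells.

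**Figure D3:**
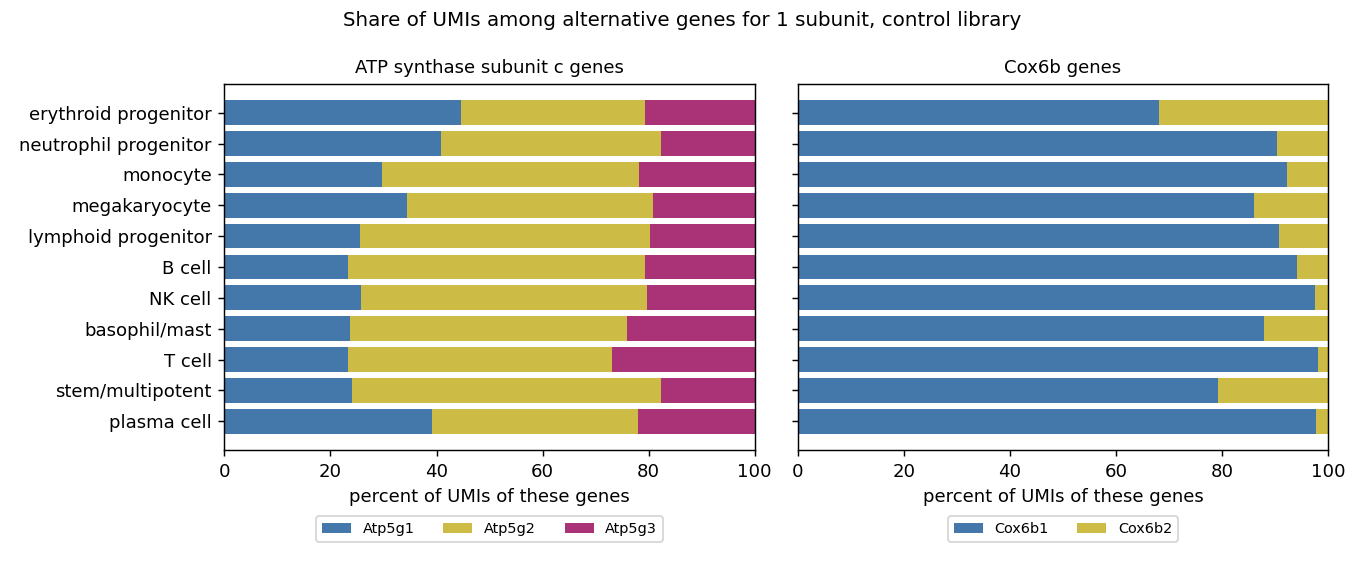
Share of UMIs (x axis, percent) among the 3 subunit c genes (left) and among Cox6b1 and Cox6b2 (right) in control populations (y axis). Atp5g1 takes 44.6% in erythroid progenitors against 24.0% in stem and multipotent cells, and Cox6b2 takes 31.8% in erythroid progenitors against 9.34% in lymphoid progenitors.

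The other genes of the pathway were described from lists. The summed mitochondrially encoded subunits ran from 19864 CPM in control plasma cells and 32255 in basophil and mast cells to 44198 in erythroid progenitors and 52491 in B cells. B cells were thus highest for them and in the middle for the nuclear genes. Assembly factors (43 genes) were highest in erythroid progenitors (2399 CPM) and stood at 1597 in stem and multipotent cells and 731 in plasma cells. Citric acid cycle enzymes (12 genes) ran from 271 CPM in plasma cells through 1199 in neutrophil progenitors to 1660 in erythroid progenitors. Electron carriers and exchangers (10 genes, among them Cycs, Cyc1 and the ADP/ATP carriers) stood at 602, 3873 and 5372 CPM in the same populations. Regulators of mitochondrial biogenesis (12 genes) stood at 484 CPM in megakaryocyte lineage cells, 476 in stem and multipotent cells, 436 in erythroid progenitors and only 311 in neutrophil progenitors. The small lead over erythroid progenitors rests on 72 and 171 cells and was not tested. Tfam and Pprc1 were highest in erythroid progenitors, Gabpa and Tfb2m in stem and multipotent cells and Gabpb1 in megakaryocyte lineage cells. The other regulators were highest elsewhere.

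Each mutant library was then compared with the control, to ask how loss of LZTR1, the adaptor through which RIT1 is marked for breakdown, or the RIT1-M90I protein goes with these genes. The 5 populations with at least 100 cells in every library were used. Both comparisons share the control library, so they are not independent of each other. Summed mRNA of the 82 genes in the mutant populations stayed within 0.948 to 1.06 times control.

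In the Lztr1 knockout the summed ratio was 1.001 (0.990 to 1.01) in lymphoid progenitors, 1.007 (1.0001 to 1.01) in neutrophil progenitors, 0.978 (0.969 to 0.987) in monocytes, 0.952 (0.947 to 0.956) in erythroid progenitors and 1.003 (0.988 to 1.02) in basophil and mast cells. The erythroid value was below 1 for each complex, from 0.939 for complexes I and IV to 0.976 for complex V. Complex II in neutrophil progenitors was the highest complex ratio, at 1.12 (1.06 to 1.19). The neutrophil sum moved below 1 with every barcode kept (0.994) and with the trimmed denominator (0.967). Proliferation genes were 1.19 times control in these neutrophil progenitors and 1.04 times in the erythroid progenitors, and their part was not tested.

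In Rit1-M90I the summed ratio was 0.948 (0.939 to 0.956) in lymphoid progenitors, 1.06 (1.06 to 1.07) in neutrophil progenitors, 1.002 (0.995 to 1.01) in monocytes, 0.983 (0.980 to 0.987) in erythroid progenitors and 0.979 (0.969 to 0.988) in basophil and mast cells. Neutrophil progenitors were above 1 for every complex, led by complex V at 1.10 (1.09 to 1.11) and complex III at 1.09 (1.07 to 1.10). Lymphoid progenitors were below 1 for every complex, from 0.933 for complex I to 0.973 for complex II. Proliferation genes were 1.13 times control in the neutrophil progenitors and 0.808 times in the lymphoid progenitors, the same directions as the members. They were 1.04 times control in erythroid progenitors, where the members were below 1. In monocytes they were 0.941 times and in basophil and mast cells 0.965 times control. The part of proliferation genes was not tested. When each cell was weighted equally, the summed ratio was only 1.004 in neutrophil progenitors, and it was 1.008 in basophil and mast cells.

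Single genes were compared on the log2 scale after 10 CPM had been added to both libraries, which pulls ratios of scarce genes towards 1, where either library had at least 50 CPM. A gene was called higher or lower where this log2 ratio was at least 0.32 away from 0. By the median over the 5 populations, 2 of the 74 members that could be compared were called higher in the Lztr1 knockout, Atp5k and Ndufa3, and 0 lower. Over all 1737 genes compared, 1.04% were called higher and 0.173% lower. In Rit1-M90I the count was also 2 of 74 higher, the same genes, and 0 lower, against 0.889% and 0.119% of 1687 genes. The median log2 ratio of the members was -0.04 in both mutants, against 0.01 for all genes in the former comparison and -0.04 in the latter. A count of 2 above these backgrounds is too small to set the members apart from other genes. Ndufb1-ps, which is not a member by its symbol, was called higher in Rit1-M90I, at 0.38.

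Called members were few in each population as well. In the Lztr1 knockout, lymphoid progenitors had 2 of 76 higher (Atp5k and Ndufa3) where 3.09% of all genes were, and 0 lower where 1.48% were. Neutrophil progenitors had 2 of 77 higher (the same genes) against 5.31%, and 0 lower against 0.866%. Monocytes had 0 of 76 in either direction, against 3.38% higher and 1.39% lower. Erythroid progenitors had 0 of 77 in either direction, against 1.19% and 0.341%. Basophil and mast cells had 4 of 74 higher (Atp5k, Atp5mpl, Ndufa3 and Ndufs7) against 4.93%, and 1 lower (Ndufa12) against 3.49%. These shares lie near or under the background, and the highest, in basophil and mast cells, rests on 4 genes.

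In Rit1-M90I, lymphoid progenitors had 1 of 75 higher (Atp5k) against 2.25% of all genes, and 0 lower against 2.91%. Neutrophil progenitors had 2 of 76 higher (Atp5k and Ndufa3) against 3.07%, and 1 lower (Cox6b2) against 1.93%. Monocytes had 1 of 75 higher (Atp5k) against 2.26%, and 0 lower against 2.94%. Erythroid progenitors had 2 of 77 higher (Atp5k and Ndufa3) against 1.54%, and 0 lower against 0.546%. Basophil and mast cells had 2 of 75 higher (the same genes) against 1.7%, and 0 lower against 1.54%. Cox6b2 in neutrophil progenitors stood at 48.2 CPM against 66.6 in the control, a ratio of 0.724.

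**Figure D4:**
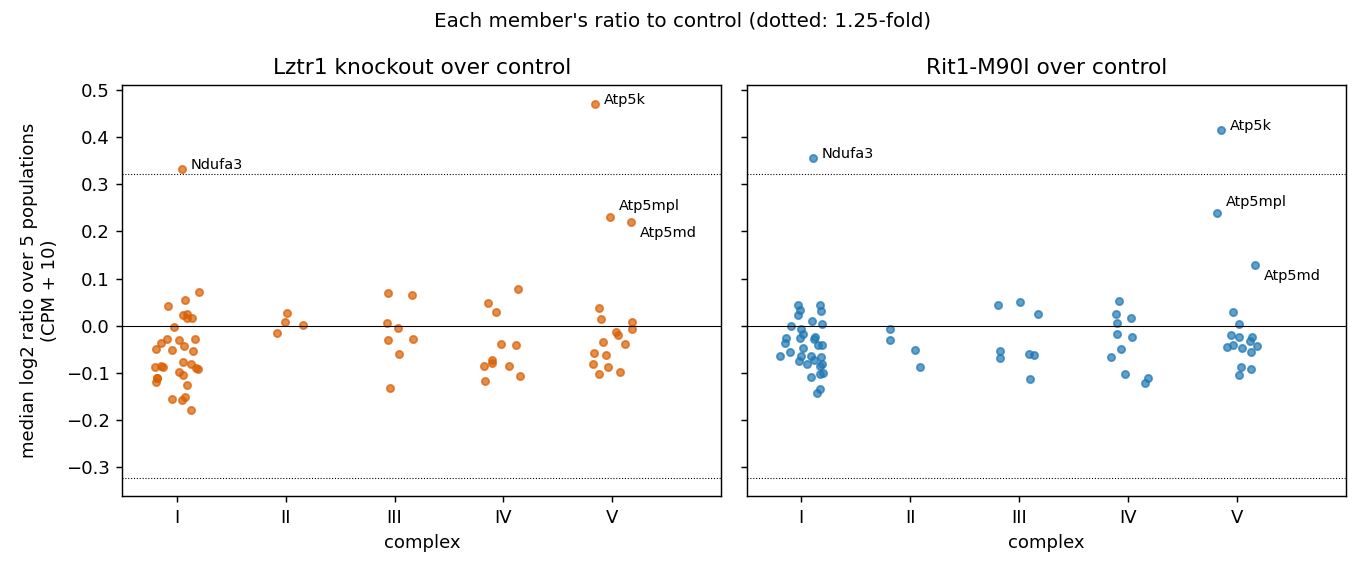
Median log2 ratio to control over 5 populations (y axis) of each member compared, by complex (x axis), for the Lztr1 knockout (left) and Rit1-M90I (right); dotted lines mark the call, 0.32 above and below 0. Atp5k and Ndufa3 lie above the line in both, Atp5mpl and Atp5md lie next, and the other members lie between -0.18 and 0.08.

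Atp5k encodes subunit e of ATP synthase, a small membrane subunit at the contact of ATP synthase dimers, and lies on mm10 at chr5:108433244-108434448, minus strand. In lymphoid progenitors it was 330 CPM in the control, against 485 in Lztr1 knockout cells and 436 in Rit1-M90I cells. Neutrophil progenitors had 589, 821 and 915 CPM in the same order. Monocytes had 534, 665 and 716 CPM, and erythroid progenitors 635, 776 and 839. Basophil and mast cells had 282, 408 and 395 CPM. Both mutants were above the control in all of these, as the rule for naming the highest members required. They were also above it in the 6 smaller populations, 11 of 11 in each mutant. In the Lztr1 knockout those 6 held 17 to 44 cells each. Of all genes compared, 252 of 1737 in the Lztr1 knockout and 116 of 1687 in Rit1-M90I were above control in all 5 populations. For members the counts were 7 and 4 of 74. The plain ratio of Atp5k was lowest in erythroid progenitors for the Lztr1 knockout, 1.22 (1.18 to 1.26), and highest in neutrophil progenitors of Rit1-M90I, 1.55 (1.505 to 1.60). The median log2 ratio was 0.47 in Lztr1 knockout cells and 0.42 in Rit1-M90I cells. In the window of 3000 to 8000 UMIs the latter was 0.32, just under the call.

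Ndufa3 encodes an accessory subunit of complex I and lies on mm10 at chr7:3617373-3620327, plus strand, overlapping Tfpt on the other strand. The sources used here do not say whether counting used strand, and without it reads of the overlap cannot be told apart. Lymphoid progenitors had 238 CPM in the control, against 312 in Lztr1 knockout cells and 258 in Rit1-M90I cells. In neutrophil progenitors it was 338, 429 and 440 CPM, and in monocytes 336, 405 and 395. Erythroid progenitors had 240, 299 and 312 CPM, and basophil and mast cells 279, 387 and 360. The mutants were above the control in all 5 populations, as the naming rule required. With the smaller populations added, Ndufa3 was above it in 10 of 11 in the Lztr1 knockout and 11 of 11 in Rit1-M90I. The median log2 ratio over the 5 populations was 0.33 in Lztr1 knockout cells and 0.36 in Rit1-M90I cells. The call is near the threshold. It was lost in the Lztr1 knockout with every barcode kept and with a lead of 1 marker in the gate, and in Rit1-M90I with cells weighted equally and in the window of 3000 to 8000 UMIs. In that window the Rit1-M90I count of higher members was 0, and 1 member was lower in each mutant, Ndufc2 (-0.33) in the Lztr1 knockout and Ndufb2 (-0.36) in Rit1-M90I. The window left few cells to compare: the Lztr1 knockout had 6 neutrophil progenitors, 37 erythroid progenitors, 56 monocytes and 87 lymphoid progenitors in it, and the control 78 neutrophil progenitors, all under the minimum of 100 used elsewhere.

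The next members were again small subunits of ATP synthase found in its membrane part. Atp5mpl (6.8 kDa proteolipid in its common name), at chr12:111961375-111966977 on the minus strand, had median log2 ratios of 0.23 and 0.24. It was above the control in 11 of 11 populations of each mutant. The naming rule required this in the 5 compared ones, and the others held under 50 cells in the Lztr1 knockout. In the window of 3000 to 8000 UMIs Atp5mpl was above in 4 of the 5 compared populations of each, with lowest log2 ratios of -0.13 and -0.11. In neutrophil progenitors it was 478 CPM in the control, against 565 in Lztr1 knockout cells and 585 in Rit1-M90I cells. Atp5md, at chr19:47083464-47090647 on the minus strand and overlapping Taf5 on the plus strand, had medians of 0.22 and 0.13. Its lymphoid progenitor level in Rit1-M90I, 332 CPM, was under the control's 338, and its median there was -0.02 in the window of 3000 to 8000 UMIs. Neither gene was called by its median.

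**Figure D5:**
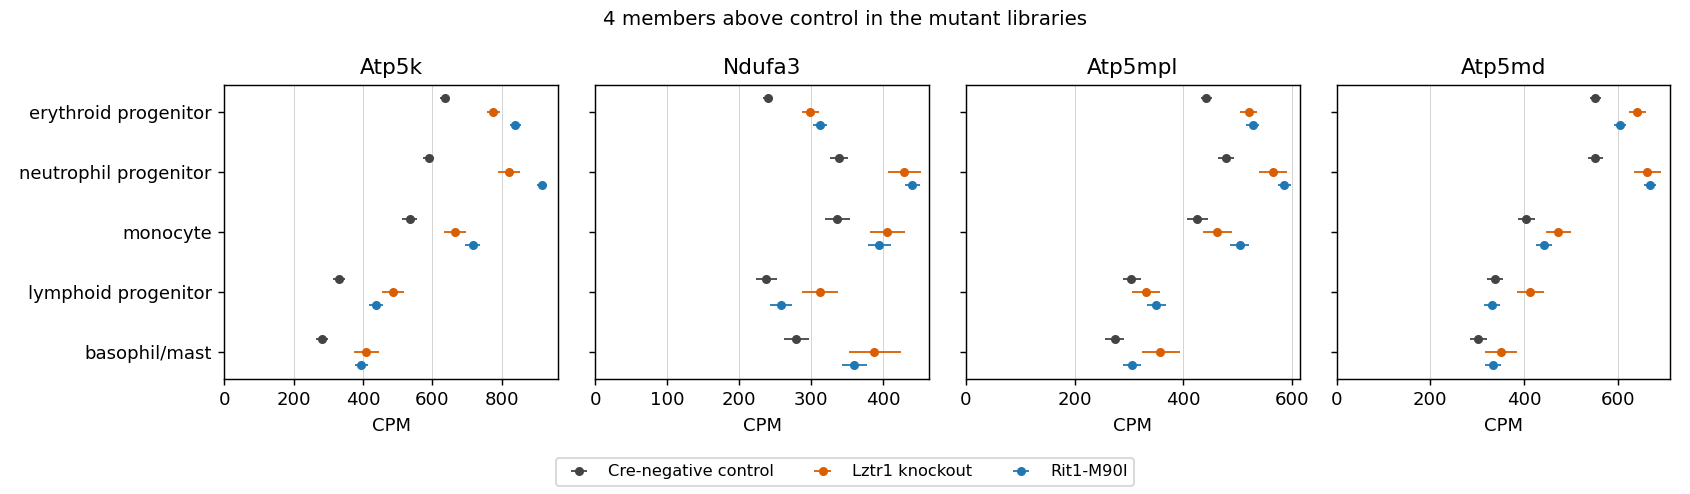
CPM (x axis) of Atp5k, Ndufa3, Atp5mpl and Atp5md in the 5 compared populations (y axis), with points for the 3 libraries and 95% counting intervals. Both mutant points of Atp5k lie right of the control in every population, for example 821 and 915 against 589 CPM in neutrophil progenitors.

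These 4 genes have short mRNAs. The transcript length was 321.5 bases for Atp5k, the shortest of the 77 members that reach 50 CPM, 362 for Atp5md, 433 for Ndufa3 and 489 for Atp5mpl, against a median of 742. Among compared genes with a transcript length, 5.94% of 101 under 600 bases and 0.622% of 1608 longer ones were called higher in the Lztr1 knockout. In Rit1-M90I the shares were 5% of 100 and 0.385% of 1559. Called genes without a length are left out, among them Tsix in the Lztr1 knockout and Ndufb1-ps, Igha, Snhg9 and Igkc in Rit1-M90I. Atp5k and Ndufa3 are themselves 2 of the 6 short genes called in the Lztr1 knockout and 2 of the 5 in Rit1-M90I. The short genes called in both mutants included the ribosomal protein genes Rps28, Rps29 and Rpl38, which are no members and were picked out after their values were seen. Most short members were not among the called: 27 members lie under 600 bases, with a median log2 ratio of -0.03 in both mutants. Over the 74 members compared, the rank correlation of length with the ratio was -0.12 for the Lztr1 knockout and -0.11 for the other mutant. Over all compared genes with a length it was 0.33 and -0.01. The part of transcript length in the Atp5k and Ndufa3 values was not tested.

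The promoters of both called genes are shown with the motif found in each in capitals. Atp5k (chr5:108434350-108434649, minus strand) holds the NRF1 motif GCATGCGC on both strands, overlapping, and the capitals start 50 bases before the start. Ndufa3 (chr7:3617123-3617422, plus strand) holds the YY1 motif AAGATGGC 22 bases past the start.
Atp5k: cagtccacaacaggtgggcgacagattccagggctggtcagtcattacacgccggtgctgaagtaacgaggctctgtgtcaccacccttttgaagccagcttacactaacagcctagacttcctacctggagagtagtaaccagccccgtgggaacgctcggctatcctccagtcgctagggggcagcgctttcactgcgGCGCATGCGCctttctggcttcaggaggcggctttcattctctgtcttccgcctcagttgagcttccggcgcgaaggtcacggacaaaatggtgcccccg
Ndufa3: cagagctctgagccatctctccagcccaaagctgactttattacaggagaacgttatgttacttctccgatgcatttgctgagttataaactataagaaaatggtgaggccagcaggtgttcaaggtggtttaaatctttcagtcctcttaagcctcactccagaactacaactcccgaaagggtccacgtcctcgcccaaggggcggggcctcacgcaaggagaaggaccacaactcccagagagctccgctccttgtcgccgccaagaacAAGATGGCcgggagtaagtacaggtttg

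RefSeq promoters on GRCm38.p6 were matched by symbol for 67 of the 82 members, 72 promoters in all, and compared with all 32851 promoters of the same length, on both strands. The NRF1 motif, GCATGCGC, was in 13.9% of member promoters and 2.71% of all. The YY1 motif, AAGATGGC, was in 12.5% and 2.75%, with 7 of the 9 members that hold it in complex I. The ETS motif, CCGGAAGT, was in 6.94% and 3.89%. The erythroid motifs were no more common in members than in all promoters, with the GATA motif AGATAA in 8.33% and 11.2% and the KLF motif CCACACCC in 2.78% and 3.56%. A match is a description of letters in this window and not a site.

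Members at the low end lay close to the control. In the Lztr1 knockout, low members that were below it in all 5 populations included Uqcrh (-0.13), Cox5b (-0.12) and Ndufb11 (-0.11). In Rit1-M90I they were Ndufb7 (-0.14) and Ndufb4 (-0.13), accessory subunits of the membrane arm, Cox5b (-0.11) and Atp5h (-0.10), a subunit of the peripheral stalk. Cox5b was thus among the lowest in both, with 751 CPM in control erythroid progenitors and ratios of 0.909 in Lztr1 knockout cells and 0.928 in Rit1-M90I cells. On the high side Cox7c was the fourth of the members above control throughout in Rit1-M90I, at 0.05. None of these was called by its median. Below control in all 5 populations were 17 of 74 members in the Lztr1 knockout, against 216 of 1737 genes compared. In Rit1-M90I the counts were 10 of 74 members and 252 of 1687 genes.

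The lists of related genes gave 0 called members in either direction by the same median, in both mutants. They do not hold every related gene. Pet100, a complex IV assembly factor on none of them, was called higher in both mutants, at 0.34 in each. It was picked out after its values were seen. Mitochondrially encoded subunits (12 of 13 compared) had a median log2 ratio of -0.0002 in Lztr1 knockout cells and 0.05 in Rit1-M90I cells. Assembly factors (8 of 43 compared) had 0.06 and -0.03. Electron carriers and exchangers (9 of 10) had -0.01 and -0.06. Citric acid cycle enzymes had 0.06 over 7 genes and 0.003 over 6, and the 1 biogenesis regulator compared had 0.002 and -0.04. Proliferation genes (15 of 18) had 0.06 and -0.02, and the core subunits of complex I (6 of 7) had -0.08 and -0.04.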

How the data were processed

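The authors deposited UMI counts per gene and barcode, whole numbers without normalization, for 3 libraries of sorted marrow cells; per the submitters' processing notes they used Cell Ranger 6.1.1, Seurat 4.1.0 and the mm10 build. The sources used here do not name the annotation release, and many members have pseudogene copies that may take reads.

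From these counts, barcodes with at least 1000 UMIs, 500 genes and at most 10% mitochondrial UMIs were kept, which removed 11.2%, 19.6% and 15.2% (control, Lztr1 knockout, Rit1-M90I), and scrublet in scanpy 1.11.5 removed 261, 84 and 466 doublets. The deposited libraries held 67541728, 30398349 and 88560148 UMIs. UMIs were summed per library and gated population and divided by the population's total (CPM). Levels carry exact Poisson and ratios exact conditional 95% intervals (scipy 1.17.1), for counting error only; nothing was tested for significance. The calculation was checked on simulated counts. Gene positions and transcript lengths (median over a gene's transcripts) came from GENCODE vM21, promoters from RefSeq GRCm38.p6.

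Members and lists were chosen with earlier results of these data known. Named genes were the 2 highest of each complex, the 6 with the largest span, the 4 highest and 4 lowest of each mutant among members of 1 sign in all compared populations, and isoform groups; 1 gene that this rule names is not reported here. The gate thresholds were picked after the gated cell numbers under 4 rules had been seen. The call by the median over 5 populations, the window of 3000 to 8000 UMIs, the gate lead of 1, the length split, the motifs and the promoters printed were chosen after values had been seen. Alternatives varied the gate, cell filter, doublets, denominator, cell weighting, pseudocount and gene floor. No paired analysis was made, since each genotype has 1 library.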

Additional observations from a re-analysis of the deposited data

Results flagged for a closer look

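The summed ratio to control lay on opposite sides of 1 in different populations of the same library, beyond the counting intervals. In the Lztr1 knockout it was 1.007 in neutrophil progenitors and 0.978 in monocytes and 0.952 in erythroid progenitors. In Rit1-M90I it was 1.062 in neutrophil progenitors and 0.948 in lymphoid progenitors, 0.983 in erythroid progenitors and 0.979 in basophil and mast cells. The Lztr1 knockout neutrophil value is barely above 1 and did not keep its side: it was 0.994 with every barcode kept and 0.967 with the trimmed denominator, and its median log2 ratio over members was -0.02, against 0.06 for all genes. With cells weighted equally, the Rit1-M90I neutrophil progenitor value was 1.004 and its basophil and mast cell value 1.008. These differences between populations were not tested, since there is 1 library per genotype.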

How the results depend on the processing

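The ratio of erythroid progenitors to plasma cells, 3.68, was 1.2497 with the trimmed denominator, 3.41 with cells weighted equally, 3.58 with a lead of 1 marker and 2.65 in the window of 3000 to 8000 UMIs. The trimmed denominator leaves out the most abundant genes by construction; for the rest of the changes the cause was not tested. The ratio of erythroid progenitors to basophil and mast cells, 1.72, was 1.66 with every barcode and with doublets kept, 1.76 with the trimmed denominator, 1.74 with equal weights, 1.68 with a lead of 1 and 1.26 in the window. The median summed ratio over 5 populations was 1.001 in the Lztr1 knockout, and 0.987 with every barcode, 0.975 with the trimmed denominator, 0.989 with equal weights and 0.965 in the window. In Rit1-M90I it was 0.983, and 0.988 with every barcode, 0.990 with doublets kept, 0.995 with the trimmed denominator, 0.988 with equal weights and 0.942 in the window. The count of higher members, 2, was 1 in the Lztr1 knockout with every barcode and with a lead of 1. In Rit1-M90I it was 1 with equal weights and 0 in the window, where the count of lower members was 1 in each mutant. Directions turned for the Lztr1 knockout neutrophil sum (0.994 with every barcode, 0.967 with the trimmed denominator), for the Rit1-M90I basophil and mast cell sum (1.008 with equal weights), and in the window for Rit1-M90I Atp5md (-0.017) and Cox6b2 (0.17). Cox6b2 in the Lztr1 knockout, -0.05, ran from -0.09 to 0.03 over the alternatives. The Rit1-M90I neutrophil progenitor sum, 1.06, was 1.004 with equal weights and 1.09 in the window. Of the other values for single genes and populations, 330 moved by less than counting error and 39 by more. Sums whose interval held 1 did not keep a side: in the window the Lztr1 knockout lymphoid progenitor sum was 0.946 and its basophil and mast cell sum 0.976, the Rit1-M90I monocyte sum was 0.942, and Ndufb4 in the Lztr1 knockout went from -0.05 to 0.08. The window and the lead of 1 were chosen after seeing the data, and the window holds only 6 neutrophil progenitors of the Lztr1 knockout. No paired analysis was possible because each genotype has 1 library. Intervals cannot show the spread between mice, and populations of under 100 cells rest on few UMIs per gene.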
